A study of Mus musculus with 12 samples.

Results

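The interaction of the cytokine mixture with ML351 is the difference between 2 cytokine responses of mouse islets, the one measured in the presence of ML351 minus the one measured in its absence. It was computed for every gene from all 12 libraries of the study, as (cytokines with ML351 over ML351) minus (cytokines over vehicle) on the log2 scale, and 14089 of 14089 genes were tested. A value above 0 means that the cytokine response was more positive, or less negative, when ML351 was present. The same number is the ML351 effect with cytokines minus the ML351 effect without them, so each result can be read along either treatment.

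Islets of C57BL/6J mice, isolated from pancreata perfused with collagenase, were cultured for 24 hours in 4 groups of 3 libraries. The groups were cytokines with ML351 (called the combination), ML351 alone, cytokines alone and vehicle. ML351 was used at 10 µM. The cytokines were interleukin 1β (5 ng/ml), tumour necrosis factor α (10 ng/ml) and interferon γ (100 ng/ml). The sources used here give neither the age and sex of the mice nor whether replicates are separate mice or cultures. The p-values therefore speak only of variation among these libraries, which may be technical. Whole islets were sequenced, so fewer cells of a type and less RNA per cell cannot be told apart in any of the values below.

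ML351 inhibits the mouse 12/15-lipoxygenase, which inserts oxygen into polyunsaturated fatty acids such as arachidonic acid and is known in islets as a source of lipid peroxides during inflammation. Interleukin 1β and tumour necrosis factor α act through NF-κB, interferon γ acts through JAK kinases, and together they induce nitric oxide synthesis, antigen presentation and stress responses in β cells while beta-cell genes decline. A treatment that acts on such a pathway can leave the cytokine response as it was, scale it, or change it for some genes, and the interaction measures the departure from simple addition on the log scale.

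Libraries held 20208286 to 27193026 counts. The first principal component, with 82.3% of the variance, separated libraries with and without cytokines. The second held 5.14%, and ML351 replicate 1 (-36.8) and cytokines replicate 1 (42.3) lay at its ends, so results are also given without these libraries. Ins2 was the islet hormone transcript with the highest level, at 191620 to 262040 CPM (counts scaled to library size with TMM factors) in every library. Alox15, which encodes the enzyme that ML351 inhibits, and Alox5 are not analysed here.

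Over all genes the cytokine response was closely similar with and without ML351. With ML351, 10079 genes changed with cytokines (71.5% of those tested, 4954 higher and 5125 lower), and without ML351 10209 changed (72.5%, 4969 higher and 5240 lower; edgeR quasi-likelihood test, adjusted p under 0.05). These responses share no library. Of the 9192 genes called in both, 9189 changed in the same direction and 3 in opposite directions. A further 887 genes were called only with ML351 and 1017 only without it, which is no test of a difference. Across the 14089 genes the log2 responses correlated with r = 0.95, and across the 9102 genes averaging 3 log2 CPM or more with r = 0.98. The slope of the response with ML351 on that without was 0.917 over all genes and 0.959 over the better expressed ones. Genes are not independent replicates, so these correlations and slopes are descriptions. Noise in the response without ML351 also lowers such a slope, so a value below 1 does not show that ML351 scaled the response.

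The interaction itself was small beside the cytokine response. Its median size, regardless of sign, was 0.15 log2, against 0.68 log2 for the cytokine response without ML351, and 95% of genes lay below 0.97. In log2 CPM, the sum of squares over all genes divided into 82.1% for cytokines, 3.05% for ML351, 1.66% for their interaction and 13.2% for the spread between libraries of a group. Per degree of freedom, cytokines held 49.6 times, ML351 1.85 times and the interaction 1.00 times the spread between libraries.

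**Figure D1:**
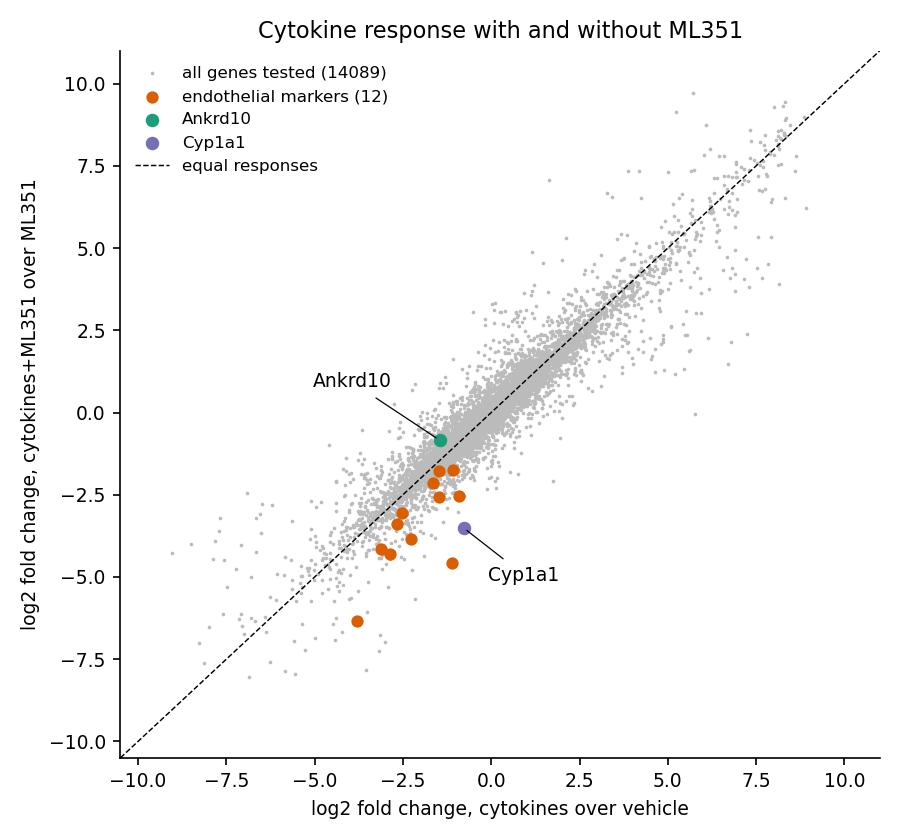
Each point is 1 of 14089 genes, with the log2 fold change of cytokines over vehicle on the horizontal axis and that of cytokines with ML351 over ML351 on the vertical axis. The dashed line marks equal responses, Ankrd10 lies above it, and Cyp1a1 and the 12 endothelial markers lie below it.

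The edgeR test called 1 gene for the interaction at an adjusted p under 0.05 (0.0071% of those tested). It was higher, and 0 genes were called lower. At an unadjusted p under 0.05 there were 1160 genes (8.23%), of which 534 were higher (3.79%) and 626 lower (4.44%). DESeq2 called 58 genes (0.412% of all 14089), 15 higher and 43 lower, and limma-voom called 0. DESeq2 ran with its default filter, which can leave genes of low mean count without an adjusted p. Such genes could not be called by it. All 58 had the same sign and an unadjusted p under 0.05 in edgeR. Of the 1160 genes, 815 were called in the same direction in both cytokine responses. Among those 815, rises were smaller with ML351 for 317 genes and larger for 81, and falls were smaller for 269 and larger for 148. Genes vary together, and the same split was not computed over all genes called in both responses. It therefore does not show that ML351 made the cytokine response smaller.

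How large an interaction these libraries could have missed is given by the intervals. The median standard error (SE) was 0.165 log2, or 0.125 among genes averaging 3 log2 CPM or more. The 95% interval lay within 0.5 log2 of 0 for 6857 genes (48.7%) and within 1 log2 for 10334 genes (73.3%). It lay wholly beyond 1 log2 in either direction for 16 genes, and Cyp1a1 was the only one of them averaging 3 log2 CPM or more.

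The called gene was Ankrd10 (chromosome 8, 11611583 to 11635757, minus strand, GRCm38), which encodes a protein with ankyrin repeats. Ankrd10 fell less with cytokines when ML351 was present. It had 40.2, 39.5 and 36.7 CPM in combination libraries, 68.3, 68.7 and 71.4 CPM with ML351, 30.5, 29.6 and 31.9 CPM with cytokines, and 84.2, 80.5 and 88.9 CPM with vehicle. No groups overlapped: the combination was above cytokines alone, while ML351 was below vehicle. The interaction was 0.62 log2 (SE 0.09, 95% interval 0.44 to 0.81, edgeR adjusted p = 0.030). Cytokines lowered Ankrd10 by a log2 fold change of -0.84 with ML351 and of -1.46 without it. The ML351 effect was 0.34 log2 with cytokines (adjusted p = 0.020) and -0.28 log2 without them (adjusted p = 0.12).

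The size of this interaction was steady, at 0.58 to 0.66 log2 over 23 alternative analyses, but the call was not. Leaving out 1 of the 12 libraries ended the call in 10 of 12 cases (adjusted p from 0.028 to 0.17 over the 12), and leaving out both libraries at the ends of the second component gave an adjusted p of 0.22. Of these 12 analyses, those without combination replicate 4 and without vehicle replicate 2 kept it. Without cytokines replicate 3 the called gene was Cyp4b1 (4.06 log2, adjusted p = 0.012) and no longer Ankrd10 (adjusted p = 0.066).

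The promoter of Ankrd10 is shown because it was the called gene. That of Cyp1a1 is shown because its interaction was the largest in size among the 27 fixed genes. These 27, Cyp1a1 among them, were chosen with earlier results of these data known. The windows cover 250 bases before to 50 after the RefSeq start (GRCm38.p6), Ankrd10 at chr8:11635708-11636007 on the minus strand and Cyp1a1 at chr9:57697363-57697662 on the plus strand. Capitals mark GCGTG on either strand, the core that the aryl hydrocarbon receptor is known to bind.
Ankrd10: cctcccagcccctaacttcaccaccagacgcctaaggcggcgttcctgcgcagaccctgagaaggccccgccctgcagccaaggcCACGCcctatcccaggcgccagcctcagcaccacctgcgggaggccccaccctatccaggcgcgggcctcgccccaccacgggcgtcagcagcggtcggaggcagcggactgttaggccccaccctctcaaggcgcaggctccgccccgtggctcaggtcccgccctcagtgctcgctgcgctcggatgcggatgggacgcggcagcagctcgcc
Cyp1a1: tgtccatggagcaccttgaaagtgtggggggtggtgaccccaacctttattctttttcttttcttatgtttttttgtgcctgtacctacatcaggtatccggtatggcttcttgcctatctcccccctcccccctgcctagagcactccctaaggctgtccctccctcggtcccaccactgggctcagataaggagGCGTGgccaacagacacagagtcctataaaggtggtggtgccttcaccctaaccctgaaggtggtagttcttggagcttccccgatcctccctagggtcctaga
Each window held 1 match, as did 10639 of 32851 RefSeq promoter windows (32.4%), so a match is common. For Ankrd10, RefSeq lists 2 windows and the one shown starts where the GENCODE gene starts. The RefSeq start of Cyp1a1 lies 9685 bases downstream of the GENCODE gene start, so the window shown is not at the start of the GENCODE gene.

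The rankings below leave out unnamed gene models, pseudogenes, Xist and Y-linked genes. Among genes averaging 3 log2 CPM or more, the smallest p-values above 0 after Ankrd10 belonged to Stk38l, Slc40a1, Gprasp2, Dnal4, Mat2a, Apobec1 and Cryl1. By edgeR none of them was called (adjusted p = 0.13 to 0.24). DESeq2 called Stk38l, Slc40a1 and Mat2a (adjusted p = 0.00029, 0.00099 and 0.0078) but not the others, which its filter may have left without an adjusted p. Stk38l, a kinase of the NDR family, had 77.6, 86.2 and 92.8 CPM in combination libraries, 32.2, 33.3 and 31.5 CPM with ML351, 58.9, 58.1 and 56.3 CPM with cytokines, and 32.9, 31.3 and 33.4 CPM with vehicle. Its ML351 libraries overlapped vehicle, while all combination libraries lay above all cytokine libraries. The interaction of Stk38l was 0.57 log2 (95% interval 0.37 to 0.78, adjusted p = 0.13). Its ML351 effect was 0.56 log2 with cytokines (adjusted p = 0.0028) and -0.01 log2 without them.

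Slc40a1 encodes ferroportin, the iron exporter of cells. It had 19.5, 19.8 and 20.3 CPM in combination libraries, 105, 109 and 110 CPM with ML351, 17.0, 15.2 and 16.8 CPM with cytokines, and 128, 128 and 120 CPM with vehicle. As for Ankrd10, the combination lay above cytokines alone and ML351 below vehicle, without overlap (interaction 0.49 log2, adjusted p = 0.17). Mat2a, which makes the methyl donor S-adenosylmethionine, had 44.7, 49.0 and 43.5 CPM in combination libraries, 81.7, 70.4 and 76.7 CPM with ML351, 31.9, 31.1 and 29.9 CPM with cytokines, and 69.1, 70.5 and 75.3 CPM with vehicle. Its combination libraries lay above the cytokine libraries, and ML351 overlapped vehicle (interaction 0.47 log2, adjusted p = 0.22). The long noncoding gene Particl lies on the opposite strand at this locus, and reads of the pair cannot be told apart. The other 4 had interactions of 0.53 (Gprasp2), 0.50 (Dnal4, an axonemal dynein light chain), 0.46 (Apobec1, the cytidine deaminase that edits apolipoprotein B mRNA) and 0.65 log2 (Cryl1).

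Below 0, the smallest p-values belonged to Plvap, Pabpc1, Sstr3, Prelid1, Scarb2, Tmem176b, Eva1b and Mcoln1, and edgeR called none (adjusted p = 0.18 to 0.24). DESeq2 called all of them except Plvap and Eva1b, with adjusted p from 8.1e-05 (Pabpc1) to 0.0032 (Mcoln1). Its filter may have left Plvap and Eva1b without an adjusted p. Pabpc1, the cytoplasmic poly(A)-binding protein, had 595, 589 and 603 CPM in combination libraries, 76.2, 77.0 and 72.3 CPM with ML351, 712, 787 and 754 CPM with cytokines, and 73.5, 73.0 and 68.2 CPM with vehicle. It rose with cytokines in both settings, by 2.99 log2 with ML351 and 3.39 log2 without (interaction -0.40 log2, 95% interval -0.57 to -0.24, adjusted p = 0.20). Every combination library lay below every cytokine library. Plvap, Prelid1, Scarb2 and Tmem176b overlap a gene on the opposite strand, so their reads cannot be told apart from those of that gene. Sstr3, a somatostatin receptor, had an interaction of -0.43 log2, and Prelid1, which moves phospholipids into mitochondria, of -0.39 log2.

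A pair of lysosomal membrane proteins was among the 8 named for small p-values below 0. Scarb2 carries glucocerebrosidase to lysosomes. It had 270, 246 and 279 CPM in combination libraries, 168, 142 and 138 CPM with ML351, 295, 288 and 316 CPM with cytokines, and 124, 120 and 117 CPM with vehicle (interaction -0.49 log2, adjusted p = 0.22). Mcoln1 encodes the lysosomal cation channel mucolipin 1. It had 106, 111 and 106 CPM in combination libraries, 61.9, 58.5 and 56.9 CPM with ML351, 106, 110 and 110 CPM with cytokines, and 45.9, 45.8 and 48.1 CPM with vehicle. Mcoln1 rose with ML351 alone (0.34 log2, adjusted p = 0.042), while its ML351 effect with cytokines was -0.01 log2, and the interaction was -0.35 log2 (adjusted p = 0.24).

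**Figure D2:**
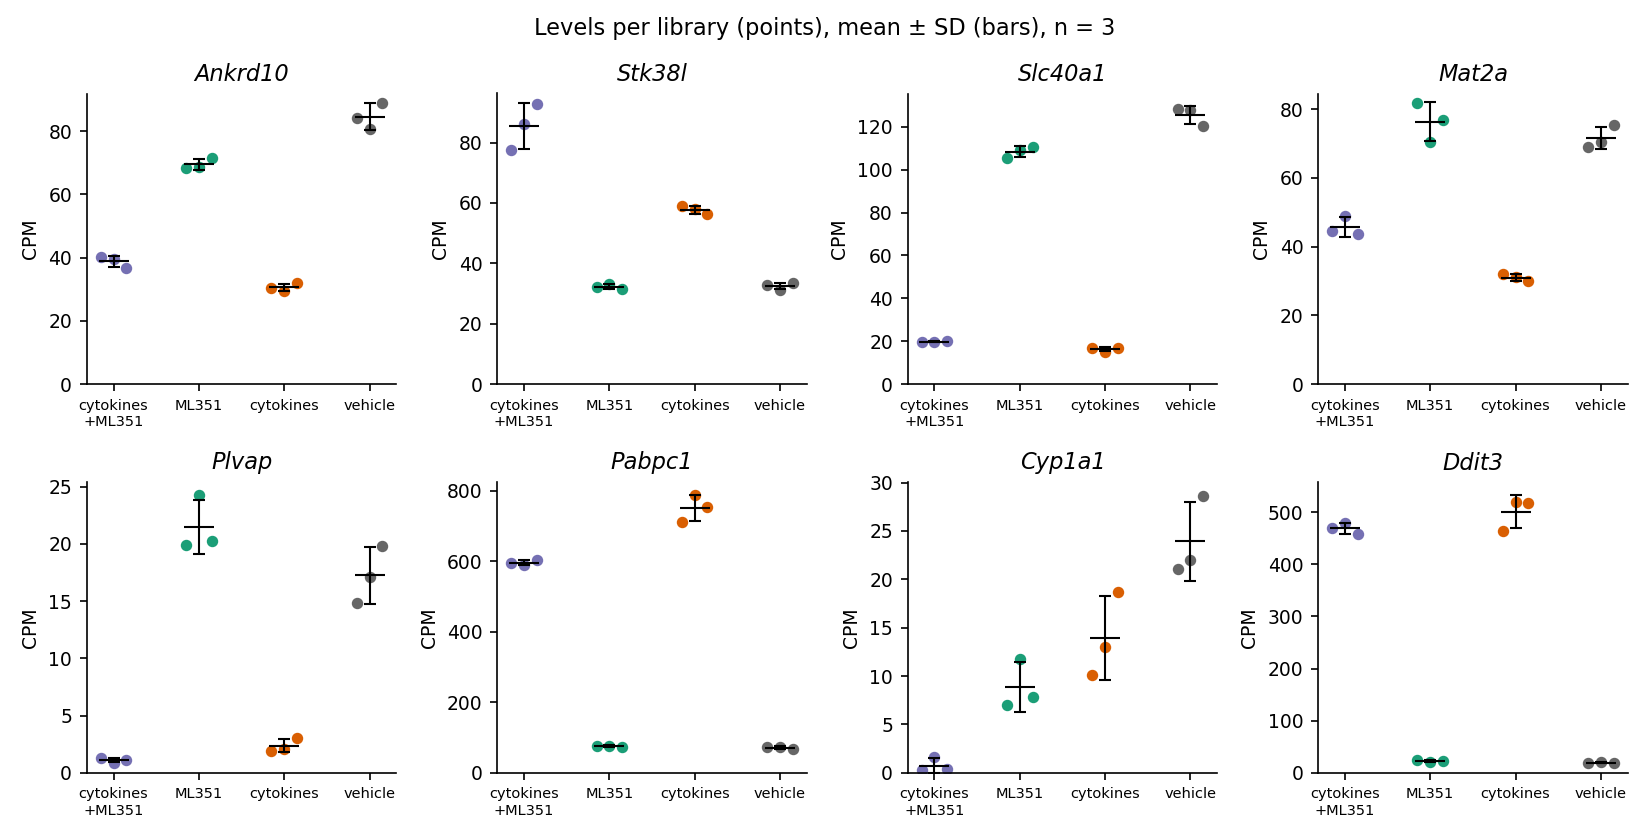
CPM of 8 genes in each library (points) with the mean and SD of 3 libraries (bars), for the combination, ML351, cytokines and vehicle. Ankrd10 and Slc40a1 lie above cytokines alone in the combination and below vehicle with ML351, Stk38l is highest in the combination, and Cyp1a1 is lowest in the combination at 0.749 ± 0.729 CPM.

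Of the genes at an unadjusted p under 0.05 and averaging 3 log2 CPM or more, the largest interactions above 0 were those of Edn3 (endothelin 3), Sfrp5 (a secreted Wnt antagonist), Nr4a1 (an immediate early nuclear receptor), Pdk4 (pyruvate dehydrogenase kinase 4) and Tac1 (the precursor of substance P). They measured 1.47, 1.24, 1.24, 1.18 and 0.95 log2 in this order, with adjusted p-values of 0.47 to 0.59. Nr4a1 had 14.9, 13.1 and 11.1 CPM in combination libraries, 12.2, 6.63 and 5.35 CPM with ML351, 5.20, 4.66 and 3.12 CPM with cytokines, and 6.79, 7.57 and 4.70 CPM with vehicle. It was higher in the combination than in cytokines alone (1.58 log2, adjusted p = 0.040). For Edn3 and Sfrp5 both groups with cytokines were below 0.6 CPM, so their values rest on few counts. The largest below 0 were Cyp1a1, Ifi44, Oas3, Xlr3a and Plvap, at -2.72, -2.23, -1.93, -1.42 and -1.41 log2. Ifi44 had 91 counts in the 3 ML351 libraries together, against 13 with vehicle, and Oas3 54 against 12, so their values rest on few counts too.

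Read along ML351, the count of called genes differed between the backgrounds. With cytokines, ML351 changed 202 genes (1.43%), 91 higher (0.646%) and 111 lower (0.788%), and without cytokines 5 genes (0.0355%), 2 higher (0.0142%) and 3 lower (0.0213%). Of the 202, 146 had an unadjusted interaction p under 0.05, and 152 had the same sign without cytokines. Those 146 share libraries with the comparison that chose them and are no separate evidence. The 5 were Xpo1 and Mcoln1 (higher) and Clec7a, Enpp2 and Atp7a (lower), and Mcoln1 and Atp7a had an interaction p under 0.05. Across genes the ML351 effects in the 2 backgrounds, which share no library, correlated with r = 0.28.

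The count of 202 moved with the libraries. It was 80 without combination replicate 2, 74, 74 and 54 without cytokines replicates 1, 3 and 4, and 90, 114 and 125 without vehicle replicates 1, 2 and 4. The count of 5 lay between 0 and 17 when single libraries were left out. By DESeq2 the counts were 527 and 110.

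Libraries without overlap show both opposite and shared directions. The combination lay above cytokines alone and ML351 below vehicle for 45 genes (0.319%), Ankrd10, Slc40a1 and Gprasp2 among them. The combination lay below cytokines alone and ML351 above vehicle for 61 genes (0.433%), with Plvap and Scarb2 among those. Libraries with ML351 lay above in both backgrounds for 217 genes (1.54%) and below in both for 188 (1.33%).

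Endothelial cells line the dense capillary bed of islets and are gradually lost from islets in culture. All 12 endothelial markers fell with cytokines in both settings, against 36.4% of all genes with ML351 and 37.2% without it. The median log2 fold change of the markers was -3.23 with ML351 and -1.96 without it. Their interactions were all below 0, from -3.45 to -0.31 log2 with a median of -1.08, against a median of -0.01 over all genes, where 51.5% were below 0. None was called by edgeR, and 0 were among the 58 genes called by DESeq2. The DESeq2 filter may have left markers of low count without an adjusted p, so that 0 decides nothing. At an unadjusted p under 0.05 there were 9 of 12 below 0 and 0 above, beside 4.44% of all genes below 0. Markers of the same cell type are not independent, so the 9 are not separate results.

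The summed level of the 12 markers was 21.3, 18.5 and 22.2 CPM in combination libraries, 132, 134 and 142 CPM with ML351, 28.9, 30.7 and 39.6 CPM with cytokines, and 122, 119 and 128 CPM with vehicle. These sums did not overlap in either background: the combination was lowest, and ML351 alone was above vehicle. Plvap (chromosome 8, 71497765 to 71511752), which forms the diaphragms of fenestrated capillaries, had 1.27, 0.883 and 1.14 CPM in combination libraries, 19.9, 24.2 and 20.2 CPM with ML351, 1.94, 2.11 and 3.02 CPM with cytokines, and 14.9, 17.1 and 19.8 CPM with vehicle. The interaction of Plvap was -1.41 log2 (SE 0.26, 95% interval -1.96 to -0.86, adjusted p = 0.18). Kdr, the main receptor for vascular endothelial growth factor, had 1.32, 0.707 and 1.66 CPM in combination libraries, 22.8, 22.1 and 20.5 CPM with ML351, 2.26, 2.11 and 2.67 CPM with cytokines, and 20.2, 17.8 and 23.3 CPM with vehicle. The combination lay below cytokines alone for Kdr too (interaction -1.04 log2, adjusted p = 0.33).

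Other junction and vessel genes gave values on the same side. Cdh5, the cadherin of endothelial junctions, measured -1.62 log2, Pecam1 (CD31) -1.11, Tie1 -1.57, Eng (endoglin) -0.66 and Flt1 -0.72. Esam (-0.31), Egfl7 (-0.48) and Tek (-0.55) had intervals that reached above 0. Vwf, the clotting factor stored by endothelium, had 3 counts in the combination libraries together, against 55 in the cytokine libraries. Its combination level was 5.69% of the cytokine level (1.14% to 17.5%, exact 95% interval for counting error only). With ML351 alone, Vwf had 97 counts, against 124 with vehicle.

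With cytokines, ML351 lowered 5 of the 12 (Vwf, Eng, Plvap, Cdh5 and Kdr, adjusted p = 0.00865 to 0.0495), beside 0.788% of all genes. The combination lay below cytokines without overlap for 7 of 12 (10.3% of all genes), and ML351 alone lay above vehicle for 5 of 12 (8.57%) with 0 called. The median interaction was -1.25 to -0.80 log2 when single libraries were left out, and -1.18 log2 with 8 markers at p under 0.05 without both libraries at the ends of the second component. With at least 5 CPM required in 3 libraries, 5 markers passed at that p, where fewer were tested.

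**Figure D3:**
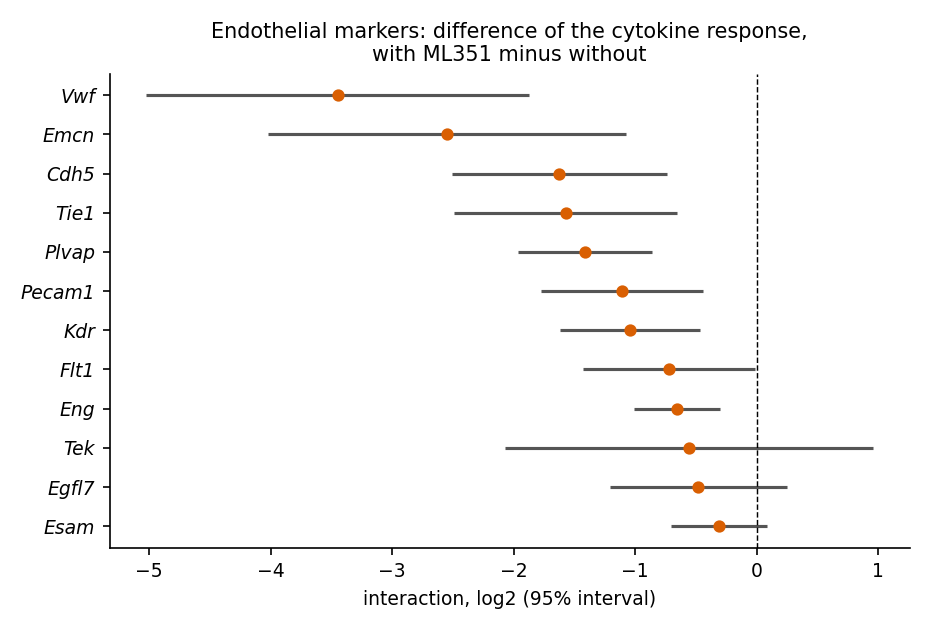
Interaction in log2 (points) with its 95% interval (lines) for the 12 endothelial markers, the dashed line at 0. All 12 points lie below 0, from -3.45 for Vwf, which rests on 3 counts in the combination, to -0.31 for Esam.

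The aryl hydrocarbon receptor is a ligand-activated transcription factor, and Cyp1a1, a cytochrome that oxidises aromatic compounds, is its classical target. Cyp1a1 (chromosome 9, 57687928 to 57703824) had 0.293, 1.59 and 0.363 CPM in combination libraries, 6.97, 11.8 and 7.87 CPM with ML351, 10.1, 13.1 and 18.7 CPM with cytokines, and 21.1, 22.0 and 28.6 CPM with vehicle. ML351 libraries lay lower in both backgrounds. The ML351 effect was -4.15 log2 with cytokines (adjusted p = 0.012) and -1.43 log2 without them (adjusted p = 0.27), and the interaction was -2.72 log2 (95% interval -4.19 to -1.26, adjusted p = 0.37).

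Other genes of this pathway did not share so large a value. Of its 12 measured genes, 1 (Ahr) was above 0 (3.79% of all genes) and 1 (Cyp1a1) below 0 (4.44%) at an unadjusted p under 0.05. The median was 0.00 log2. Ahr, the receptor itself, had 8.41, 11.4 and 6.95 CPM in combination libraries, 6.80, 4.44 and 5.08 CPM with ML351, 4.84, 5.79 and 5.54 CPM with cytokines, and 6.15, 5.98 and 4.83 CPM with vehicle. Its interaction was 0.79 log2 (adjusted p = 0.45), with the combination above cytokines alone. Cyp1b1, another cytochrome of this pathway, had 2.25, 8.17 and 3.84 CPM in combination libraries and 25.7, 17.9 and 26.9 CPM with cytokines, and its ML351 effects were -2.29 log2 with cytokines and -1.61 log2 without them, neither of them called (interaction -0.68 log2, interval -2.54 to 1.17). Ahrr, also on this list, had ML351 effects of -2.72 log2 with cytokines and -2.74 log2 without them (interaction 0.03 log2). Cyp1b1 and Ahrr were chosen after their values were seen.

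The endoplasmic reticulum (ER) of β cells folds proinsulin, and its chaperones follow the load of unfolded protein. The list of 27 ER chaperones and folding enzymes also held the stress regulators Ern1, Atf6 and Xbp1 and the calcium pump Atp2a2. Genes of ER protein degradation, such as Derl1 and Edem1, were on it too. Of these 27 genes, 22 had an interaction below 0 (51.5% of all genes), with a median of -0.13 log2. The highest value was 0.10, and 0 were called by edgeR. At an unadjusted p under 0.05, 7 were below 0 (Calr, Derl1, Ero1l, Dnajb11, Dnajc3, Edem1 and P4hb; 4.44% of all genes) and 0 above. With ML351 alone, 15 of 27 lay above vehicle without overlap (8.57% of all genes), while with cytokines 5 lay above (10.1%) and 1 below. None of the 27 was called for ML351 without cytokines.

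Calr, the lectin chaperone calreticulin, had 1112, 1036 and 1109 CPM in combination libraries, 917, 860 and 818 CPM with ML351, 1083, 1132 and 1121 CPM with cytokines, and 782, 731 and 711 CPM with vehicle. ML351 lay above vehicle, and the combination overlapped cytokines (interaction -0.26 log2, edgeR adjusted p = 0.38, DESeq2 adjusted p = 0.049). Hspa5, the master chaperone BiP, was the called member with cytokines. It had 2619, 2448 and 2794 CPM in combination libraries, 2268, 2153 and 2152 CPM with ML351, 2041, 2124 and 2273 CPM with cytokines, and 1893, 1777 and 1900 CPM with vehicle. Its ML351 effects were 0.29 log2 with cytokines (adjusted p = 0.031) and 0.24 log2 without them (adjusted p = 0.18), and the interaction was 0.05 log2 (95% interval -0.13 to 0.23). The count of 7 rested on single libraries. It was 2 and 14 without combination replicates 2 and 4, 4 and 12 without ML351 replicates 1 and 3, 4 without cytokines replicate 4, and 4 and 3 without vehicle replicates 2 and 4. It was 3 without both libraries at the ends of the second component and 11 with acinar markers as a covariate.

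The promoters of these chaperones are shown because Calr had the smallest interaction p on the list and Hspa5 was its called member for ML351 with cytokines. Windows are of RefSeq on GRCm38.p6, Calr at chr8:84846882-84847181 on the minus strand and Hspa5 at chr2:34771840-34772139 on the plus strand, 250 bases before to 50 after the start. Capitals mark the ER stress response element (CCAAT and CCACG separated by 9 bases) and GCGTG, on either strand.
Calr: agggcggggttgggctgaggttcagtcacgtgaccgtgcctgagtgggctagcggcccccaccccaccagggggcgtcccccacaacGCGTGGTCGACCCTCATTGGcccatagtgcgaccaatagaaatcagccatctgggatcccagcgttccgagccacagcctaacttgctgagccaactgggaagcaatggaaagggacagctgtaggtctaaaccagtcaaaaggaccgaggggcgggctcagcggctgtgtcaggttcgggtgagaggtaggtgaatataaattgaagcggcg
Hspa5: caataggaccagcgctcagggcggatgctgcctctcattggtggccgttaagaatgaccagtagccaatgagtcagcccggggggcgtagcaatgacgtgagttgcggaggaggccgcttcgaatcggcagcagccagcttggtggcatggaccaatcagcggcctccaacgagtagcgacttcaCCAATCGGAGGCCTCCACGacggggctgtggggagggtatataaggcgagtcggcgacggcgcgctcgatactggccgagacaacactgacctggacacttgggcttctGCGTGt
Both windows held 1 ER stress response element, on the reverse strand in Calr, where it overlaps GCGTG, and on the forward strand in Hspa5. The element was found in 39 of 32851 windows (0.119%) and in neither Ankrd10 nor Cyp1a1. The RefSeq start of Hspa5 lies 120 bases downstream of the GENCODE gene start, and that of Calr within 3 bases of it.

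The integrated stress response lowers general translation and induces Ddit3 (CHOP), a transcription factor linked to cell death. Ddit3 had 470, 479 and 459 CPM in combination libraries, 24.8, 21.1 and 22.7 CPM with ML351, 464, 520 and 518 CPM with cytokines, and 19.0, 20.1 and 19.0 CPM with vehicle. Its response was 4.36 log2 with ML351 and 4.69 log2 without (interaction -0.33 log2, edgeR adjusted p = 0.37, DESeq2 adjusted p = 0.049). ML351 alone lay above vehicle, and the combination overlapped cytokines. Of 21 genes of this response, 3 were below 0 (4.44% of all genes) and 1 above (3.79%) at an unadjusted p under 0.05, with a median of -0.07 log2. Trib3, an inhibitor of AKT induced by CHOP, measured -0.30 log2 (adjusted p = 0.40).

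Interferon γ induces guanylate-binding proteins and immunity-related GTPases, which act on intracellular pathogens, and all 19 measured of 20 rose with cytokines in both settings (35.2% of all genes with ML351 and 35.3% without). Their interactions had a median of 0.13 log2 and 0 of 19 reached an unadjusted p under 0.05. Gbp2, for example, measured 0.23 log2 (interval -0.04 to 0.51). Some members of these families are near-identical in sequence, so the counts of those are uncertain.

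The 28 antiviral genes had a median interaction of -0.17 log2 with 22 below 0 (51.5% of all genes), and 4 below (4.44%) and 1 above (3.79%) at an unadjusted p under 0.05. Oas3, a sensor of double-stranded RNA, had 20.4, 22.6 and 14.1 CPM in combination libraries, 1.19, 0.583 and 0.394 CPM with ML351, 19.1, 19.4 and 17.7 CPM with cytokines, and 0.297, 0.140 and 0.0921 CPM with vehicle. The groups with cytokines overlapped, and the interaction of -1.93 log2 (adjusted p = 0.38) came with a higher level in ML351 than in vehicle libraries, all of them below 1.2 CPM. Irf7, the regulator of interferon genes, had 350, 338 and 338 CPM in combination libraries, 11.1, 8.63 and 11.5 CPM with ML351, 352, 330 and 339 CPM with cytokines, and 7.34, 7.24 and 8.70 CPM with vehicle. Its groups overlapped in both backgrounds (interaction -0.41 log2, edgeR adjusted p = 0.38, DESeq2 adjusted p = 0.049). Cmpk2, a mitochondrial nucleotide kinase, was the member above 0, at 0.25 log2 (adjusted p = 0.40). The count of 5 was 3 without combination replicate 1, without cytokines replicate 1, without vehicle replicate 2 and with the macrophage level as a covariate, 2 with the replicate number as a block or acinar markers as a covariate, and 1 with limma-voom.

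The branches of antigen presentation had medians of opposite sign. All 19 MHC class I genes were measured, with a median of -0.11 log2, 16 below 0 (51.5% of all genes), and 1 above (3.79%) and 2 below (4.44%) at an unadjusted p under 0.05. The member above 0 was H2-T23, which encodes the nonclassical molecule Qa-1 (0.35 log2, edgeR adjusted p = 0.37, DESeq2 adjusted p = 0.049). The 7 measured of 10 MHC class II genes were all above 0, with a median of 0.55 log2 and 2 of 7 at an unadjusted p under 0.05 (3.79% of all genes above 0). H2-Aa had 58.0, 68.5 and 44.9 CPM in combination libraries, 4.04, 3.32 and 4.21 CPM with ML351, 67.9, 61.2 and 69.9 CPM with cytokines, and 6.49, 6.77 and 6.58 CPM with vehicle. ML351 alone lay below vehicle and the groups with cytokines overlapped (interaction 0.57 log2, adjusted p = 0.46). H2-Ab1, its partner chain, measured 0.55 log2 (adjusted p = 0.48).

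Macrophages are among the cells that carry class II molecules, and the summed level of their markers was lower with ML351. The sum over 16 genes was 360, 373 and 344 CPM in combination libraries, 198, 199 and 178 CPM with ML351, 399, 423 and 406 CPM with cytokines, and 243, 242 and 239 CPM with vehicle. ML351 libraries were lower in both backgrounds, without overlap for 10 of 16 markers with cytokines (10.3% of all genes) and for 9 of 16 without them (7.32%), and the median interaction of the markers was 0.09 log2. With the macrophage level, which moves with cytokines too, as a covariate, the class II median was 0.36 log2 and 0 of 7 reached an unadjusted p under 0.05. The class II count was 1 with limma-voom and with the replicate number as a block, and the part of the macrophage level in the class II values was not tested.

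Energy metabolism gave small values below 0. Of 17 glycolysis genes, 14 were below 0 (51.5% of all genes), with a median of -0.24 log2, and 3 (Pkm, Gapdh and Pgam1) were below 0 at an unadjusted p under 0.05 (4.44%), with 0 above. Gapdh, a central glycolytic enzyme, had 1104, 1088 and 1074 CPM in combination libraries, 574, 459 and 446 CPM with ML351, 1306, 1395 and 1384 CPM with cytokines, and 474, 508 and 411 CPM with vehicle. Every combination library lay below every cytokine library, and ML351 overlapped vehicle (interaction -0.41 log2, adjusted p = 0.38). Gapdh has many near-identical pseudogenes, so its counts are uncertain. Pkm, the last glycolytic enzyme, had 1261, 1237 and 1322 CPM in combination libraries and 1516, 1563 and 1515 CPM with cytokines, and was lower in the combination (-0.27 log2, adjusted p = 0.029; interaction -0.28 log2, edgeR adjusted p = 0.37, DESeq2 adjusted p = 0.014). For 11 of the 17 the combination lay below cytokines without overlap (10.3% of all genes), and for 1 ML351 lay below vehicle (7.32%). The count of 3 was 8 without ML351 replicate 2 and 8 without vehicle replicate 2, 5 with DESeq2 or with acinar markers as a covariate, and 9 with macrophage markers as a covariate.

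Of 29 genes of oxidative phosphorylation, 24 were below 0 (51.5% of all genes), with a median of -0.09 log2, 4 below 0 at an unadjusted p under 0.05 (4.44%) and 0 above. Atp5d, a subunit of ATP synthase, had 119, 113 and 120 CPM in combination libraries, 124, 127 and 118 CPM with ML351, 137, 133 and 131 CPM with cytokines, and 117, 116 and 120 CPM with vehicle (interaction -0.25 log2, edgeR adjusted p = 0.37, DESeq2 adjusted p = 0.040). The combination was below cytokines alone, and ML351 overlapped vehicle. The count of 4 was 7 without cytokines replicate 1 and 8 without combination replicate 4. Among 24 genes of cholesterol and fatty acid synthesis, Srebf1, their transcriptional regulator, was the member at an unadjusted p under 0.05 (-0.36 log2, edgeR adjusted p = 0.37, DESeq2 adjusted p = 0.040).

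Of the pathways through which the mixture signals, 0 members were called by edgeR. The 24 JAK, STAT, IRF and SOCS genes had a median of -0.03 log2, with 13 below 0 and 1 (Irf7) below at an unadjusted p under 0.05. The 18 cytokine receptor genes and adaptors had a median of -0.08 log2, with 13 below 0 and 2 (Irak1 and Irak3) below at that p. The 25 NF-κB genes had a median of -0.15 log2, with 17 below 0 and 2 (Nfkbia and Birc3) below at that p, and none of the 3 lists had a member above 0 at it (4.44% of all genes were below and 3.79% above). The 19 chemokines had a median of 0.10 log2, between -1.16 and 3.45, with 0 at that p. Irf1, a transcription factor that interferon γ induces, measured 0.11 log2 (interval -0.09 to 0.32). Nfkbia, the inhibitor of NF-κB, measured -0.32 log2 (-0.56 to -0.09, adjusted p = 0.44). Irak3, an inhibitor of interleukin 1 receptor signalling, measured -0.68 log2 (adjusted p = 0.53). The 95% interval lay within 0.5 log2 of 0 for 15 of the 24, 13 of the 18, 9 of the 25 and 1 of the 19 genes, in the order of the lists above.

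Nos2, the inducible nitric oxide synthase, had 957, 946 and 1092 CPM in combination libraries, 2.42, 2.73 and 3.07 CPM with ML351, 1278, 1222 and 1176 CPM with cytokines, and 4.97, 3.50 and 3.18 CPM with vehicle. ML351 libraries lay lower in both backgrounds, by -0.30 log2 with cytokines (adjusted p = 0.10) and -0.51 log2 without (adjusted p = 0.29), and the interaction was 0.21 log2 (95% interval -0.17 to 0.59). Cxcl10, the chemokine that draws T cells, overlapped between all groups that share a cytokine status (0.05 log2, -0.62 to 0.73).

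Oxidative stress genes had medians near 0, and how closely a member was measured varied. Of 27 antioxidant enzymes, 2 (Txn2 and Prdx6) were below 0 at an unadjusted p under 0.05 (4.44% of all genes), 0 were above, and the median was -0.01 log2. The 95% interval lay within 0.5 log2 of 0 for 19 of them. Of 24 genes of NRF2 and its targets, 1 (Gstm1, 0.33 log2, adjusted p = 0.44) was above 0 (3.79%) and 0 below, with a median of -0.06 log2 and 16 intervals within 0.5 log2. Sod2, the mitochondrial superoxide dismutase, measured -0.10 log2 (-0.28 to 0.09), Gpx1 0.02 (-0.22 to 0.26), Cat 0.00 (-0.35 to 0.36), Nfe2l2, which encodes NRF2, 0.03 (-0.17 to 0.24) and Hmox1, heme oxygenase 1, -0.15 (-0.46 to 0.16). Other members were far less closely measured, among them Gsta4, a glutathione transferase (-1.27 log2, -4.19 to 1.64), and Slc7a11, the cystine transporter (-0.93 log2, -2.63 to 0.76), both named after their values were seen. In ML351 replicate 1 both lay above the other ML351 libraries, with Gsta4 at 31.3, 3.61 and 2.91 CPM in ML351 replicates 1, 2 and 3.

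The 10 measured of 15 NADPH oxidase genes, whose products make superoxide, had a median of 0.07 log2, and 1 interval lay within 0.5 log2 of 0. Rac2, a small GTPase of the phagocyte oxidase, was the member at an unadjusted p under 0.05 (1.38 log2, 0.19 to 2.56, adjusted p = 0.52), beside 3.79% of all genes above 0. Rac2 averaged 1.19 ± 0.29 CPM in combination libraries, 0.471 ± 0.252 CPM with ML351, 1.10 ± 0.15 CPM with cytokines and 1.12 ± 0.18 CPM with vehicle (SD, n = 3 each), so the ML351 libraries were the low ones. Duox2, a dual oxidase of epithelia that was likewise named after its values were seen, differed widely between libraries of a group (interaction -3.89 log2, -11.83 to 4.05).

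Of 25 genes of lipoxygenases, cyclooxygenases and phospholipases, the family of ML351's target, 20 were tested, with a median of 0.01 log2. At an unadjusted p under 0.05, 2 were above 0 (3.79% of all genes) and 1 below (4.44%), and 6 of the 20 intervals lay within 0.5 log2 of 0. Tbxas1, thromboxane synthase, had 0.586, 1.02 and 0.674 CPM in combination libraries, 0.680, 0.291 and 0.394 CPM with ML351, 0.282, 0.343 and 0.252 CPM with cytokines, and 0.891, 0.888 and 0.691 CPM with vehicle. Its combination libraries lay above cytokines alone and its ML351 libraries below vehicle, at low levels (2.23 log2, 0.89 to 3.57, adjusted p = 0.37). Lta4h, which makes leukotriene B4, measured 0.19 log2 (0.00 to 0.38, adjusted p = 0.59), and Hpgds, the prostaglandin D synthase of blood cells, -0.25 log2 (-0.48 to -0.02, adjusted p = 0.58). Alox12, the platelet-type 12-lipoxygenase, had 11.8, 9.49 and 13.1 CPM in combination libraries, 0.382, 0.328 and 0.315 CPM with ML351, 12.9, 13.3 and 16.1 CPM with cytokines, and 0.594, 0.280 and 0.230 CPM with vehicle. Its groups overlapped in both backgrounds, and the interval of -1.03 to 0.70 around -0.17 log2 leaves room for sizeable differences. Ptgs2, cyclooxygenase 2, had an even wider interval (-2.57 to 1.35).

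Beta-cell genes had a median interaction near 0, while other islet cell genes varied more. The 30 beta-cell genes had a median of -0.02 log2, between -0.33 and 0.40, with 1 above and 1 below 0 at an unadjusted p under 0.05. Over all genes, 3.79% were above and 4.44% below at that p. Pdx1, the transcription factor that maintains β cells, had 8.11, 6.05 and 5.55 CPM in combination libraries, 61.6, 70.0 and 61.5 CPM with ML351, 7.58, 6.43 and 6.60 CPM with cytokines, and 69.1, 67.5 and 74.9 CPM with vehicle. Its groups overlapped in both backgrounds (0.06 log2, -0.27 to 0.40), as did those of Mafa (0.04 log2, -0.36 to 0.44). Ins1 measured 0.06 log2 (-0.25 to 0.36) and Ins2 0.07 log2 (-0.21 to 0.36). The beta-cell genes with a p under 0.05 were G6pc2 (0.34 log2), the islet glucose-6-phosphatase, and Ptprn (-0.33 log2), a protein of secretory granules. Alpha-cell genes had a median of 0.03 log2, between -0.66 and 3.09, with 0 of 10 at that p. Only 1 of these 10 intervals lay within 0.5 log2 of 0.

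Of 5 delta-cell genes, 2 were above 0 at an unadjusted p under 0.05 (3.79% of all genes), and the median was 0.44 log2. Hhex, the transcription factor of delta cells, had 4.25, 2.91 and 3.94 CPM in combination libraries, 13.9, 11.7 and 13.5 CPM with ML351, 1.17, 2.40 and 1.76 CPM with cytokines, and 10.7, 12.2 and 13.0 CPM with vehicle. It was higher in the combination than in cytokines alone (1.07 log2, adjusted p = 0.029) and fell with cytokines in both settings (interaction 0.94 log2, adjusted p = 0.37). Sst, the hormone of these cells, measured 0.47 log2 (interval -0.05 to 0.99).

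**Figure D4:**
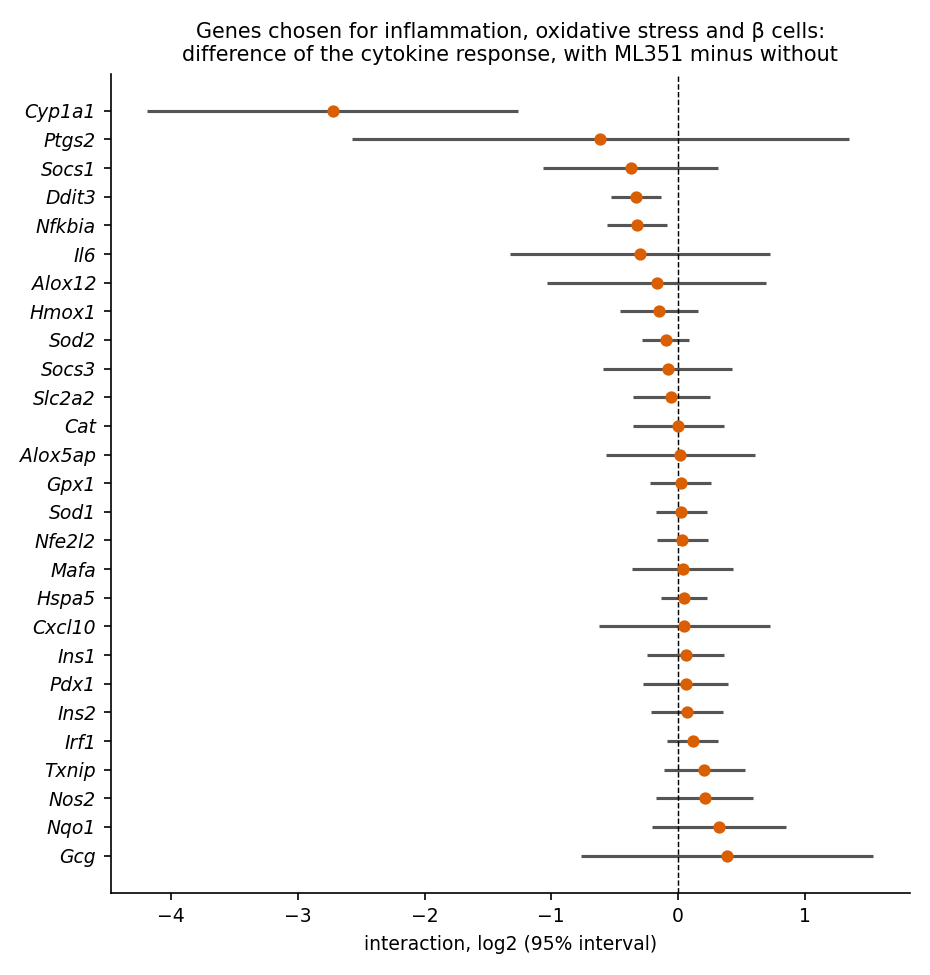
Interaction in log2 (points) with its 95% interval (lines) for 27 fixed genes, the dashed line at 0. They were chosen with earlier results of these data known, for inflammation, oxidative stress and islet cells, with Cyp1a1 added. Of the 27, 0 were called by edgeR, 3 (Cyp1a1, Ddit3 and Nfkbia) reached an unadjusted p under 0.05 (8.23% of all genes), and 13 intervals lie within 0.5 log2 of 0.

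Markers of other cells varied with the libraries. The 21 measured acinar markers, of the exocrine pancreas, had a median interaction of 2.18 log2, all above 0, but 0 reached an unadjusted p under 0.05. Their summed level was 1415, 1657 and 1125 CPM in combination libraries, 351, 399 and 211 CPM with ML351, 53.3, 675 and 967 CPM with cytokines, and 778, 533 and 260 CPM with vehicle. The combination was above every other group, and cytokines replicate 1 was lowest of all libraries. With this level as a covariate Ankrd10 measured 0.64 log2 (adjusted p = 0.17) and the count of endothelial markers at an unadjusted p under 0.05 was 9 of 12. Stellate and fibroblast markers summed to 64.9, 215 and 71.3 CPM in combination libraries, with replicate 2 the high one, 186, 213 and 411 CPM with ML351, 115, 116 and 161 CPM with cytokines, and 318, 513 and 209 CPM with vehicle. Their median of 0.32 log2 became -0.64 without that library. Trypsinogen genes such as Try4 and Try5 are near-identical copies, so their counts are uncertain. Of the lists not described above, Schwann cell markers had a median of -0.65 log2, with 1 of 6 below 0 at an unadjusted p under 0.05, and PP-cell genes had a median of 0.36 log2, with 1 of 3 above 0. The 2 measured of 12 lymphocyte markers were above 0, 1 of them at that p, and of 11 ductal markers 1 was above and 1 below at that p, with a median of -0.01 log2. Cell cycle genes had a median of 0.26 log2 (1 of 25 above 0 at that p), nitric oxide and arginine genes 0.06 (1 of 12 below), exocytosis genes -0.04 (0 of 24), glucose sensing genes and channels -0.03 (2 of 24 above), cell death genes -0.10 (1 of 29 above and 1 below), and immediate early and stress genes -0.13 (1 of 21 above). Over all genes, 3.79% were above 0 and 4.44% below at that p, and these small counts are no results about the lists.

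**Figure D5:**
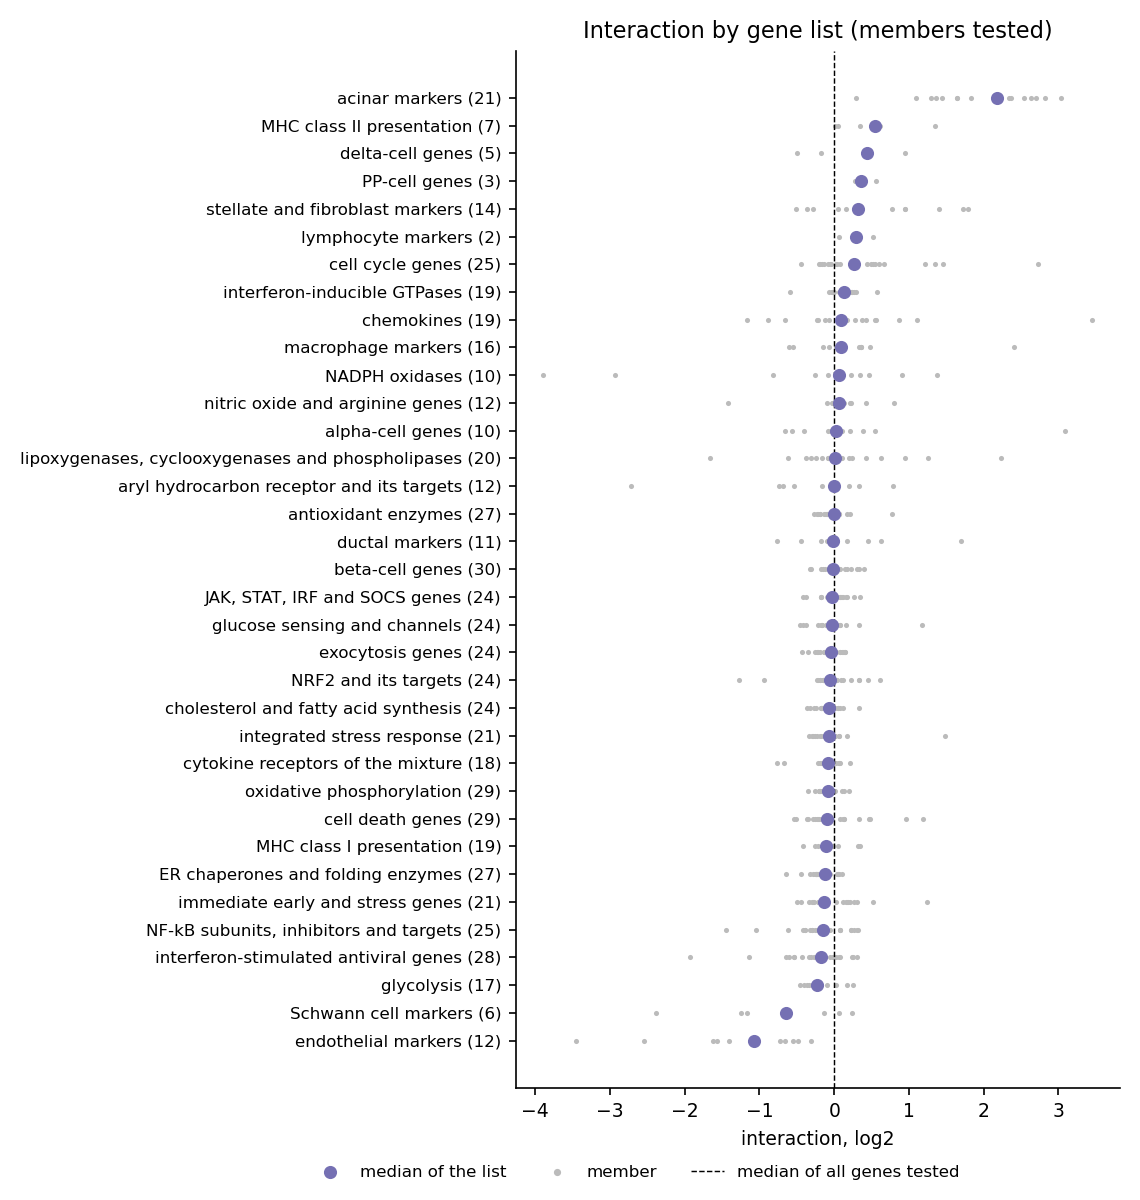
Interaction in log2 of the tested members (small points) and their median (large points) for 35 gene lists, with the number tested in parentheses. Acinar markers have the highest median, 2.18, and endothelial markers the lowest, -1.08, while the median of all genes tested is -0.01.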

How the data were processed

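The authors deposited whole-number counts per gene symbol, 1 column per library. Libraries were nonstranded (SMARTSeq v4), per the labels' protocols, so overlapping and antisense genes cannot be told apart. Per the submitters' processing notes, build mm10 and the tools DESeq2, featureCounts, FastQC, STAR and Subread were used. Versions, annotation and filters: not given in the sources used here.

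All 12 libraries (20208286 to 27193026 counts) entered 1 edgeR 4.0.16 model in R 4.3.3, with a mean per group, TMM scaling, filterByExpr (which removed no gene) and robust quasi-likelihood F-tests. P-values were Benjamini-Hochberg adjusted over 14089 genes per contrast, with a threshold of 0.05. SE is the log2 value divided by the square root of F. No replicate pair matched within sampling noise. Coordinates come from GENCODE M21 (GRCm38), which held 13589 symbols. The test was checked on simulated data.

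Named genes were all called genes, the 8 smallest p in each direction, the 5 largest values in each direction at an unadjusted p under 0.05 (both averaging 3 log2 CPM or more), 27 fixed genes (another is not reported here), and up to 3 members of each of 35 lists (616 of 659 genes tested) with the smallest p. Genes, lists and rules were chosen with earlier results of these data known, and lists were only described. DESeq2 1.42.0, limma 3.58.1 and other settings were alternatives.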

Additional observations from a re-analysis of the deposited data

Results flagged for a closer look

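The ML351 effect on Ankrd10 differed between islets with and without cytokines, and the difference itself was tested: the interaction was 0.62 log2 (edgeR adjusted p = 0.030). All combination libraries lay above all cytokine libraries, and all ML351 libraries below all vehicle libraries. These are the libraries that gave the call, so their separation is no separate evidence. The adjusted p of this interaction lay between 1.3e-06 (DESeq2) and 0.34 (replicate numbers as a block) over the alternatives.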

How the results depend on the processing

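Of 144 named genes, 74 had an unadjusted interaction p under 0.05 and 0 of these changed sign in any of 23 alternatives, while 19 of the 144 did. The alternatives reuse the libraries in which these genes had a small p, so a kept sign is no separate evidence. Counts of calls moved more, and the cause was not tested. For the interaction (1 called, 1 higher, 0 lower), DESeq2 called 58, 15 higher and 43 lower, and limma-voom called 0 with 0 higher. The counts were also 0 and 0 with acinar or macrophage markers as a covariate and without ML351 replicate 1 and cytokines replicate 1 together. For ML351 with cytokines (202), the counts were 527 with DESeq2, 110 without robust weighting, 36 with the acinar covariate, 55 with the macrophage covariate and 76 without those 2 libraries. For ML351 without cytokines (5), they were 0 with relative log expression factors, 2 with upper-quartile factors, 110 with DESeq2, 15 with at least 5 CPM in 3 libraries, and 0 without robust weighting, with the acinar covariate and without those 2 libraries. With the macrophage covariate, which moves with cytokines, the cytokine responses had 3702 calls with ML351 and 4864 without. At 5 CPM the interaction held 0.973% of the sum of squares. When single libraries were left out, the interaction had 0 to 1 calls (0 to 1 higher, 0 to 0 lower) and 947 to 1431 genes at an unadjusted p under 0.05. The cytokine response then had 9448 to 10104 calls with ML351 and 9618 to 10259 without, ML351 had 54 to 236 with cytokines and 0 to 17 without, and the interaction held 1.57% to 2.18%. List medians moved by more than the median SE of their members in 7 of 805 cases. This SE is that of single genes, so it is a loose bound for a median. Some medians changed sign, such as that of immediate early and stress genes (-0.18 to 0.14 when single libraries were left out). Without a filter nothing changed, since the filter removed no gene.

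Libraries with the same replicate number did not deviate more alike than others, with a median correlation of -0.07 against 0.02. The labels do not say whether a number marks a shared islet preparation, and these correlations cannot decide it. The 13 pairs with the same number had correlations of -0.38 to 0.20 in their deviations from group means, and 3 of 12 libraries correlated best with their own number. With the number as a replicate block, the interaction had 0 calls and 0 higher, ML351 had 53 calls with cytokines and 0 without, and Ankrd10 had an adjusted p of 0.34. Depth limits genes below about 1 CPM, such as Vwf, whose combination level rests on 3 counts. Intervals cover the spread between 3 libraries a group.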
